A study of Mus musculus with 29 samples.

Results

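The dermomyotome is the dorsal epithelial sheet of the somite, and the 9 genes described here, Pax3, Pax7, Dmrt2, Lbx1, En1, Sim1, Eya1, Eya2 and Met, are factors of this sheet and of the muscle progenitors that arise from it. They were taken by name from the count files, and all 9 members were found among the 23337 genes listed for each library. The RNA came from C57BL/6 mouse embryos of stage E9.0 whose Dll1-lineage cells are marked by YFP, and was sequenced in 29 libraries of 8 groups. The DIR group (n = 4) is sorted Dll1-lineage presomitic mesoderm that the labels call sclerotome-induced, cultured with LDN, an inhibitor of BMP receptors, and SAG, an agonist of Smoothened in the Hedgehog pathway, and the CTRL group (n = 4) is the same tissue cultured without the 2 agents. The uncultured series holds sorted YFP-positive cells of 4 axial levels: SOMA is presomitic mesoderm with the newest somite (n = 3), SOMB is somites 2 to 5, SOMC is somites 6 to 9, and SOMD is somite 10 to the last somite taken, which was the 13th to the 16th depending on the replicate (n = 4 for each of these 3). The MUT and WT groups (n = 3 each) are RNA taken directly from trunk tissue that was not sorted, so it holds neural tube and other cells beside somites, and the labels do not say what is mutated. Nothing in the labels says that replicates came from separate embryos or cultures, so the p-values measure the spread between these libraries, which may be technical in the sorted and cultured groups. In the trunk groups, Xist was at 1812 and 1811 CPM in MUT2 and MUT3 and at 2.13 CPM in MUT1, against 2.96 to 10.7 CPM in WT, so the MUT libraries hold embryos of both sexes, and sex is not balanced between MUT and WT.

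In the mouse, Pax3 and Pax7 are paired-box transcription factors that mark the dermomyotome and its muscle progenitors, and Dmrt2 is a DM-domain factor of the early dermomyotome. The Eya proteins are transcriptional co-activators that act with the Pax and Dach factors in a network upstream of the myogenic regulators. Met is the receptor for hepatocyte growth factor (Hgf) and is needed for muscle progenitors to leave the lateral dermomyotome and migrate into limb buds, and Lbx1 marks those migrating cells. En1 marks the central dermomyotome and Sim1 its lateral part. Several of these genes also have other sites of expression at this stage: Pax3 and Pax7 in the dorsal neural tube and neural crest, En1 in the midbrain-hindbrain region and ventral spinal interneurons, Lbx1 in dorsal spinal interneurons.

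The start regions of Pax7, En1 and Met are printed because Pax7 and En1 were higher in SOMD than in SOMA while Met was lower there. Each run is 250 bases before and 50 bases after the RefSeq start, from the GRCm38.p6 build and written 5' to 3' on the strand of the gene. Capitals mark the E-box CACGTG.
Pax7, chr4:139832919-139833218, minus strand: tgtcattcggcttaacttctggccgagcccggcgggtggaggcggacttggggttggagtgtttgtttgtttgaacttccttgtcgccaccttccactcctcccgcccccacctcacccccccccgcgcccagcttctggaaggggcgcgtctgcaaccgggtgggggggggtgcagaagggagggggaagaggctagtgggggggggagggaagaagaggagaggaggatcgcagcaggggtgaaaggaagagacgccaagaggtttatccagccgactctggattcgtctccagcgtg
En1, chr1:120602237-120602536, plus strand: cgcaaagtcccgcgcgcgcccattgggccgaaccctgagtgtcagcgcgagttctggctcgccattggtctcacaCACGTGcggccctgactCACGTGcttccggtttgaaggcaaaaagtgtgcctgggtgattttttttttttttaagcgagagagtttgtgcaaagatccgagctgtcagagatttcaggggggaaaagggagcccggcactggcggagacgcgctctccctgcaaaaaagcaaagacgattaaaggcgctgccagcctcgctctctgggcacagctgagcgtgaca
Met, chr6:17463707-17464006, plus strand: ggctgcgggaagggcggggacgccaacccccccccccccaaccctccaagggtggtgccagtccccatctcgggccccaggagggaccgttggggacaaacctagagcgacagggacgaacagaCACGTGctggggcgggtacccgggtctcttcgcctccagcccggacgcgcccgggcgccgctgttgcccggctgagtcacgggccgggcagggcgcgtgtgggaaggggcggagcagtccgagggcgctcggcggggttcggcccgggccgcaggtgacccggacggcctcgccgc
The letters CTTTGA (TCF/LEF), TAATTA (paired-class homeodomain), TGGGTGGTC (Gli) and CACGTG were searched on both strands; the last was added after the sequences had been read. The CACGTG motif stands 2 times in the En1 window and 1 time in the Met window, and none of the 4 motifs stands in the Pax7 window. Of 32851 promoter windows of the same length, 16.0% hold CTTTGA, 5.29% TAATTA, 0.253% TGGGTGGTC and 7.15% CACGTG. The windows are 63.7% (Pax7), 57.0% (En1) and 75.7% (Met) GC, against a median of 52.7% over all windows. A match describes letters only.

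Levels are given as CPM, the reads on a gene scaled to the size of the library, with TMM scaling over the 29 libraries. Library totals over genes ran from 11541131 to 44363411 reads. The SOMC libraries of replicates 1 and 4 were nearly identical, as were those of SOMD, with a dispersion index (variance over that of counting noise) of 2.04 and 1.99, against 9.71 to 236.4 for the other pairs of 1 group. Both exceed the limit of 1.1 set for a library deposited more than once, so they were kept apart. For members called at the steps into SOMC and SOMD, the result with each pair summed is also given. For other genes named at those steps it is not given. Over all genes, summing the pairs cut the number called by edgeR from 114 to 15 in SOMC against SOMB. In SOMD against SOMC it fell from 322 to 51. Within the culture, DIR1, DIR2 and CTRL1 had more reads aligned at several places than the other 5 libraries, and SOMA1, SOMB1, SOMC1, SOMC4, SOMD1 and SOMD4 had more reads in no annotated gene than the other SOM libraries. Differences within each of these sets are given beside pooled ones, as differences of mean log2 CPM. The first value is for the set with the higher share. That set holds 2 DIR libraries and 1 CTRL library, 1 library each of SOMA and SOMB, and the near-identical libraries of SOMC and SOMD. Its values for SOMB against SOMA therefore rest on 1 library against 1, and those for SOMD against SOMC on near-identical pairs. Values within sets carry no test.

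Pax3, Eya1, Met, Dmrt2 and Sim1 were well expressed in every group. In DIR, CTRL, SOMA and SOMB, Pax7 averaged 0.34 to 0.71 CPM, while Lbx1 and En1 averaged 0 to 0.12 CPM. In MUT and WT, Lbx1 and En1 averaged 0.42 to 0.68 CPM, and En1 had 0 reads in WT2. As CPM per kilobase of exon, which allows levels of different genes to be compared, mean levels in SOMD were 8.16 for Dmrt2, 5.41 for Pax3, 4.18 for Eya1, 3.03 for Eya2, 1.98 for Met, 1.46 for Sim1, 1.32 for Lbx1, 0.84 for En1 and 0.52 for Pax7. In SOMA, Pax3 (7.25), Dmrt2 (7.03), Eya1 (6.84) and Met (5.04) stood highest on that scale, and Pax7 (0.06), Lbx1 (0.05) and En1 (0.01) lowest. In bulk RNA, more cells that express a gene and more RNA per cell cannot be told apart. Ordered by group mean over the 8 groups, Lbx1 was highest in SOMD, above all libraries of the next group, MUT, and Eya2 was lowest in CTRL, below all libraries of the next group, SOMA. Pax3 was lowest in DIR, with no overlap with CTRL, and for Met the 3 highest groups, WT, MUT and SOMA, stood clear of SOMB and the rest. For Pax7 the order of means was WT, MUT, SOMD, SOMC, CTRL, SOMB, DIR and SOMA; the MUT libraries stood clear of SOMD, while WT1 and WT2 lay within the range of SOMD, and SOMC overlapped SOMB. For Dmrt2, En1, Sim1 and Eya1 every group overlapped its neighbour in the order. None of the 9 genes shares exon bases with another gene in GENCODE M21.

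**Figure D1:**
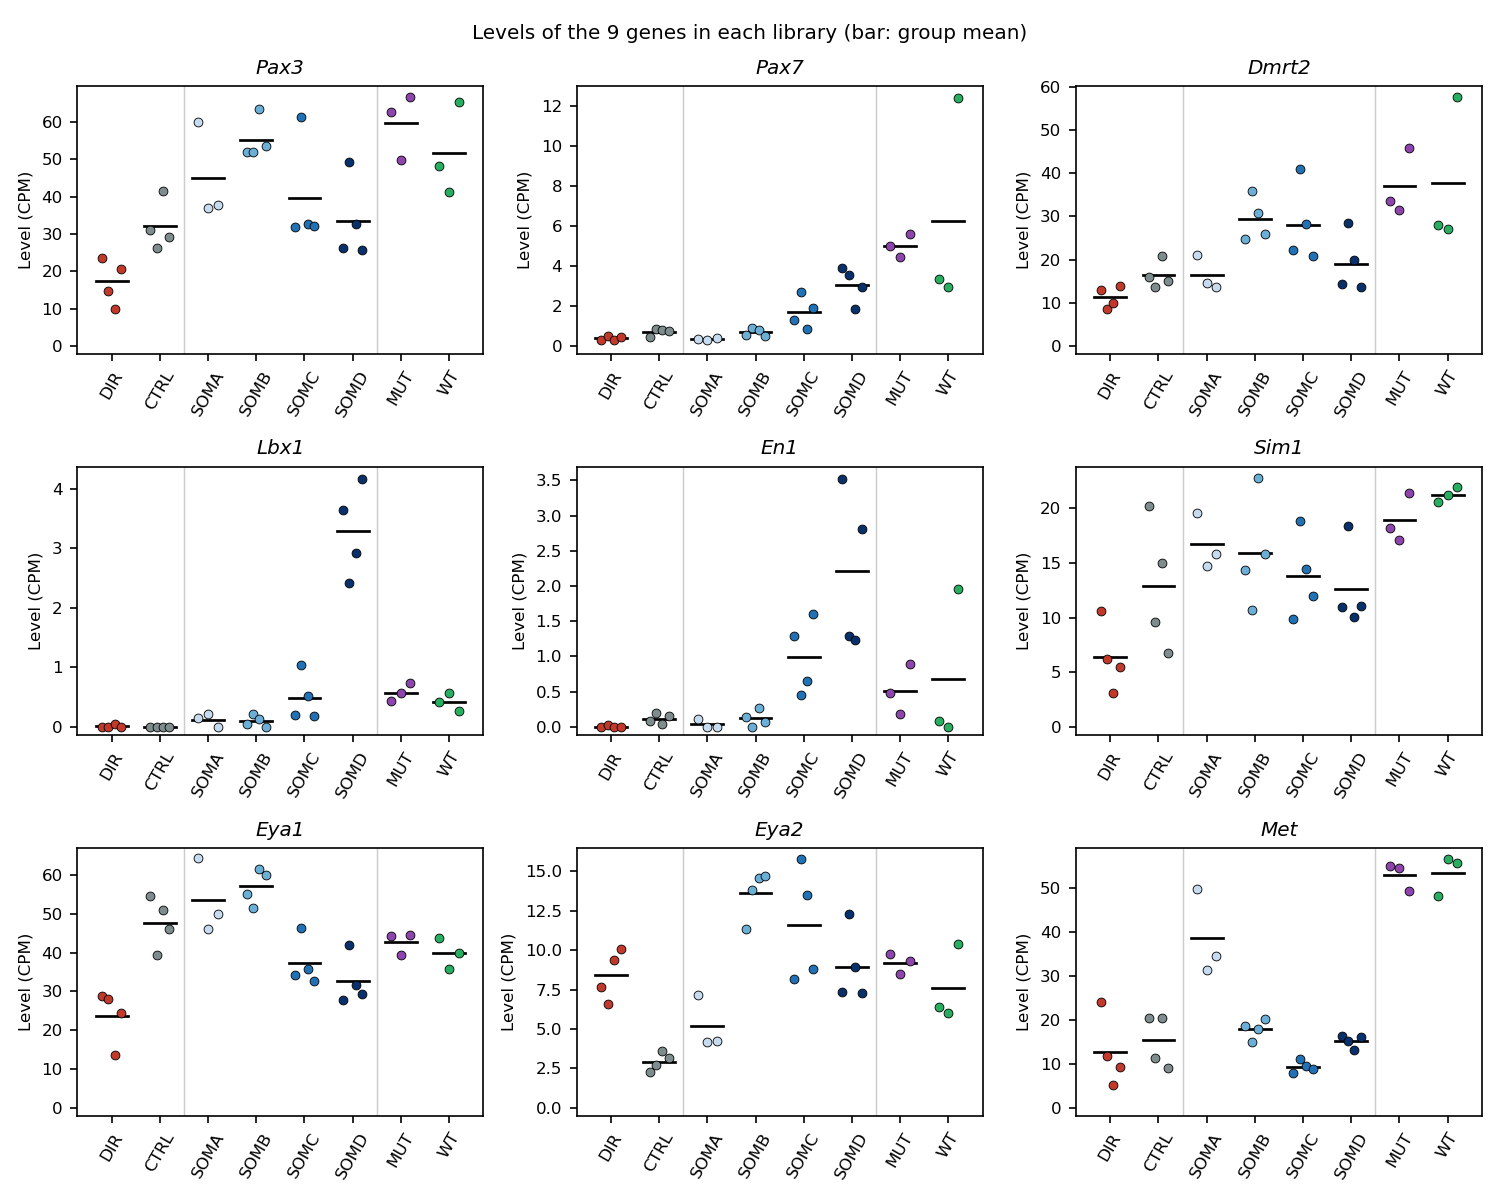
Level of each of the 9 genes in every library (1 point per library, CPM, linear axes), by group along the x axis, with the group mean as a bar. Lbx1 is highest in the 4 SOMD libraries, Eya2 is lowest in the 4 CTRL libraries, and Met is higher in MUT, WT and SOMA than in the other groups.

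The first question was how the 9 genes responded when presomitic mesoderm was cultured with LDN and SAG. Eya2 rose and was the 1 member called, of 7 that passed the filter on low counts; 0.747% of the 14190 genes tested were called in this comparison (0.303% higher, 0.444% lower). The 7 genes had 6 negative differences and a median log2 fold change of −0.84, against −0.01 over all genes tested. By edgeR's test before adjustment, 6 of the 7, all but Met, had a p under 0.05, and only Eya2 passed after adjustment. The share of all genes with an unadjusted p under 0.05 is not given, so this count has no baseline. Pax3 also correlated with Eya1, Sim1 and Dmrt2 over the sorted and cultured libraries, so the 6 are not independent results. The members that did not pass the filter were Lbx1 and En1.

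Eya2, a transcriptional co-activator (chromosome 2, 165595032-165771727, plus strand, GRCm38), had 7.68, 6.57, 9.38 and 10.1 CPM in the DIR libraries, against 2.31, 2.72, 3.61 and 3.14 CPM in the CTRL libraries. All 4 DIR libraries were above all 4 CTRL libraries. The means were 8.43 ± 1.59 CPM in DIR and 2.94 ± 0.56 CPM in CTRL (SD, n = 4 each), a log2 fold change of 1.52 ± 0.21 (SE; adjusted p = 0.0117, edgeR quasi-likelihood test with Benjamini-Hochberg adjustment over all genes), and within the 2 sets of culture libraries the difference was 1.61 and 1.63. Without CTRL replicate 2 the adjusted p was 0.0565 and without CTRL replicate 4 it was 0.0545.

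Eya1 (chromosome 1, 14168954-14310235, minus strand), the paralog of Eya2, had 28.8, 27.96, 13.5 and 24.6 CPM in DIR, against 54.6, 39.3, 50.8 and 46.0 CPM in CTRL. The groups did not overlap, and DIR was the lower one. The log2 fold change of −1.01 ± 0.22 did not pass the adjusted threshold in edgeR's test (adjusted p = 0.0897), though it did with DESeq2 (adjusted p = 0.00227), with all 29 libraries fitted together (adjusted p = 8.71e-04) and with the multiply aligned share as a term (adjusted p = 0.0304). In all, 3 of 15 other settings passed, and the adjusted p reached 0.265. The differences within the sets were −0.94 and −1.31.

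Pax3 (chromosome 1, 78101267-78197134, minus strand) had 23.6, 14.8, 10.0 and 20.7 CPM in DIR, against 30.99, 26.3, 41.5 and 29.3 CPM in CTRL. Here too every DIR library was below every CTRL library. The log2 fold change was −0.89 ± 0.26 with a 95% interval of −1.40 to −0.39 (adjusted p = 0.185, edgeR; 0.0393 with DESeq2; 0.0297 with all 29 libraries fitted together), and −0.73 and −1.14 within the sets. Pax7 had 0.319, 0.498, 0.287 and 0.447 CPM in DIR, against 0.451, 0.829, 0.802 and 0.745 CPM in CTRL, from 52 and 88 reads in all. These groups overlapped through CTRL1, and the log2 fold change was −0.84 ± 0.32 (edgeR adjusted p = 0.279; −0.17 and −1.10 within the sets).

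Dmrt2, Sim1 and Met also stood lower in DIR on average without passing edgeR's test. Dmrt2 averaged 11.3 ± 2.50 CPM in DIR and 16.3 ± 3.12 CPM in CTRL (SD, n = 4 each; log2 fold change −0.53 ± 0.20, edgeR adjusted p = 0.275; −0.60 and −0.46 within the sets). Sim1 averaged 6.36 ± 3.15 CPM in DIR and 12.9 ± 5.95 CPM in CTRL (−1.02 ± 0.41, edgeR adjusted p = 0.298; 0.0403 with all 29 libraries fitted together and 0.0352 with the multiply aligned share as a term; −1.31 and −1.27 within the sets). Met averaged 12.6 ± 8.14 CPM in DIR and 15.4 ± 6.07 CPM in CTRL (−0.29 ± 0.44, 95% interval −1.15 to 0.57, edgeR adjusted p = 0.785; −0.28 and −0.87 within the sets). En1 had 0, 1, 0 and 0 reads in DIR, against 3, 7, 1 and 5 reads in CTRL, and was not tested; Lbx1 had 1 read in DIR and 0 in CTRL.

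**Figure D2:**
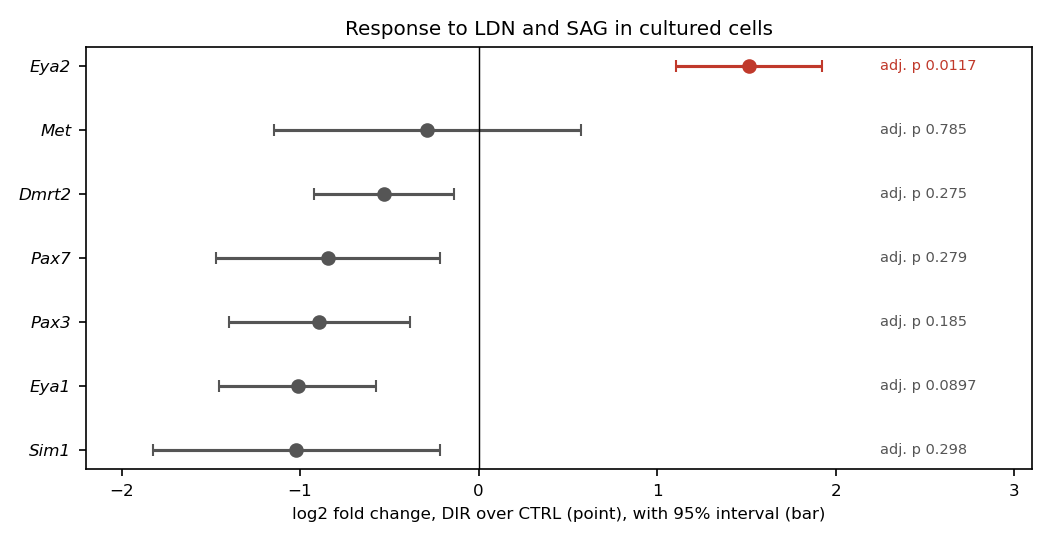
Log2 fold change of the 7 tested members in DIR over CTRL (points, x axis) with 95% intervals (bars) and the edgeR adjusted p of each gene at the right; called genes are red. Eya2 lies at 1.52 and is the 1 called gene, and the other 6 points lie below 0.

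Other genes of the somite were set beside these. Myf5, the earliest myogenic regulatory factor, fell by 2.996 ± 0.39 on the log2 scale (edgeR adjusted p = 0.00873), with means of 0.25 ± 0.09 CPM in DIR and 2.03 ± 0.74 CPM in CTRL, and was the 1 gene called of 5 tested in the myogenic list. The sclerotome factor Pax1 rose (log2 fold change 3.93 ± 0.45, edgeR adjusted p = 0.00529). Of the 13 listed partners of the Pax and Eya factors, among them Six4, Dach1 and Dach2, 0 were called by edgeR, and 1 had an unadjusted p under 0.05. Markers of other mesoderm differed between the same libraries. The 6 lateral plate and heart field markers summed to 43.2 to 69.3 CPM in DIR and 130.1 to 227.8 CPM in CTRL. Of these, edgeR called 5 of 5 tested genes lower. The 6 intermediate mesoderm markers summed to 22.1 to 46.8 CPM in DIR and 58.2 to 90.7 CPM in CTRL. Here 5 of 5 tested genes had negative differences and an unadjusted edgeR p under 0.05, and 1 was called. In DIR, 1 lateral plate marker was at 0 in all 4 libraries. Their part in the lower levels of Eya1, Pax3 and Sim1 was not tested.

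The second question was how the genes change along the axis from the presomitic mesoderm to the older somites. A joint test over SOMA, SOMB, SOMC and SOMD called 6 of the 9 members, against 19.8% of the 13790 genes tested: Met (adjusted p = 9.22e-07), Lbx1 (1.18e-05), Pax7 (8.68e-05), En1 (1.28e-04), Eya1 (0.00149) and Eya2 (0.00718), all by edgeR. Dmrt2 (adjusted p = 0.0754), Pax3 (0.183) and Sim1 (0.607) were not called. With the replicate number as a block the joint test also called Dmrt2 and Pax3. The numbers pair the libraries only in SOMA with SOMB and in SOMC with SOMD, so that block does not hold across all levels. In SOMD against SOMA, 5 of 9 members were called, against 19.8% of all genes tested: 3 rose (Pax7, Lbx1, En1), as did 10.8% of all genes, and 2 fell (Eya1, Met), as did 8.92% of all genes. In SOMB against SOMA, Eya2 rose and Met fell, 2 of 9 members, against 8.67% of all genes called (4.13% higher, 4.55% lower). In SOMC against SOMB, En1 rose and Met fell, 2 of 9 members, against 0.827% of all genes (0.486% higher, 0.341% lower). In SOMD against SOMC, Lbx1 and Met rose, 2 of 9 members, against 2.34% of all genes (1.26% higher, 1.07% lower).

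Pax7 (chromosome 4, 139737062-139833528, minus strand) had 0.359, 0.292 and 0.379 CPM in SOMA, 0.544, 0.897, 0.822 and 0.516 CPM in SOMB, 1.29, 2.72, 0.847 and 1.90 CPM in SOMC, and 3.91, 3.54, 1.85 and 2.95 CPM in SOMD. The group mean was higher at each older level, and SOMD did not overlap SOMA or SOMB. In SOMD against SOMA the log2 fold change was 3.13 ± 0.42 (edgeR adjusted p = 4.83e-05; 3.17 and 2.87 within the sets), and no single step between neighbouring levels passed the test.

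En1 (chromosome 1, 120602418-120607992, plus strand) had 3, 0 and 0 reads in SOMA, 3, 0, 4 and 1 reads in SOMB, 26, 7, 10 and 43 reads in SOMC, and 53, 15, 16 and 79 reads in SOMD. Every SOMC and SOMD library was above every SOMA and SOMB library. It rose in SOMC against SOMB by a log2 fold change of 3.18 ± 0.70 (edgeR adjusted p = 0.0468; 3.23 and 2.81 within the sets), and in SOMD against SOMA by 5.31 ± 0.82 (edgeR adjusted p = 1.89e-04; 4.64 and 6.08 within the sets). The step from SOMB to SOMC was no longer called with the near-identical libraries summed (adjusted p = 0.164), nor without SOMB replicates 1, 2 or 4 or SOMC replicates 1, 3 or 4 in turn (adjusted p = 0.0540 to 0.181).

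Lbx1 (chromosome 19, 45232684-45235812, minus strand), the homeobox gene of migrating muscle progenitors, had 4, 3 and 0 reads in SOMA, 1, 5, 2 and 0 reads in SOMB, 4, 16, 8 and 5 reads in SOMC, and 55, 28, 38 and 117 reads in SOMD. As levels, SOMD had 3.65, 2.42, 2.93 and 4.16 CPM, and no library of SOMA, SOMB or SOMC was above 1.04 CPM. It rose in SOMD against SOMC by a log2 fold change of 2.90 ± 0.47 (edgeR adjusted p = 0.00386; 4.21 and 1.83 within the sets; adjusted p = 0.0631 with the near-identical libraries summed) and in SOMD against SOMA by 4.72 ± 0.64 (edgeR adjusted p = 5.81e-05; 4.59 and 5.32 within the sets).

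Met (chromosome 6, 17463800-17573980, plus strand) had its lowest level in the middle of the series. It had 49.9, 31.5 and 34.7 CPM in SOMA, 18.7, 15.1, 17.9 and 20.2 CPM in SOMB, 7.93, 11.2, 9.45 and 8.78 CPM in SOMC, and 16.4, 15.2, 13.2 and 16.1 CPM in SOMD. Neighbouring levels did not overlap at any of the 3 steps. Met fell in SOMB against SOMA by 1.12 ± 0.15 on the log2 scale (edgeR adjusted p = 1.65e-04; −1.41 and −0.91 within the sets), fell again in SOMC against SOMB by 0.94 ± 0.15 (edgeR adjusted p = 0.00838; −1.16 and −0.77), and rose in SOMD against SOMC by a log2 fold change of 0.73 ± 0.15 (edgeR adjusted p = 0.0176; 0.96 and 0.46). With the near-identical libraries summed the last 2 steps were not called (adjusted p = 0.068 and 0.19). The rise was also not called with all 29 libraries fitted together (adjusted p = 0.441) or without any of the 4 near-identical libraries in turn (0.0679 to 0.0769), and the second fall was not called in that joint fit (0.282).

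Hgf, the ligand of Met, averaged 2.04 ± 0.91 CPM in SOMA (SD, n = 3), then 4.07 ± 0.95, 6.95 ± 0.74 and 17.8 ± 5.14 CPM in SOMB, SOMC and SOMD (SD, n = 4 each). Hgf rose in SOMD against SOMC by a log2 fold change of 1.37 ± 0.23 (edgeR adjusted p = 0.00504) and in SOMD against SOMA by 3.07 ± 0.29 (edgeR adjusted p = 1.96e-06). Of the 8 genes listed as Met signalling and migration partners, Hgf and the cadherin Cdh11 (log2 fold change 1.20 ± 0.15) rose in SOMD against SOMA, as did the integrin Itga4 (1.84 ± 0.28), which was named after its value was seen, and the chemokine receptor Cxcr4 fell, by 3.06 ± 0.30. Gab1, the adaptor that Met binds, averaged 46.1 ± 3.98 CPM in SOMD and 39.6 ± 3.28 CPM in SOMA.

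**Figure D3:**
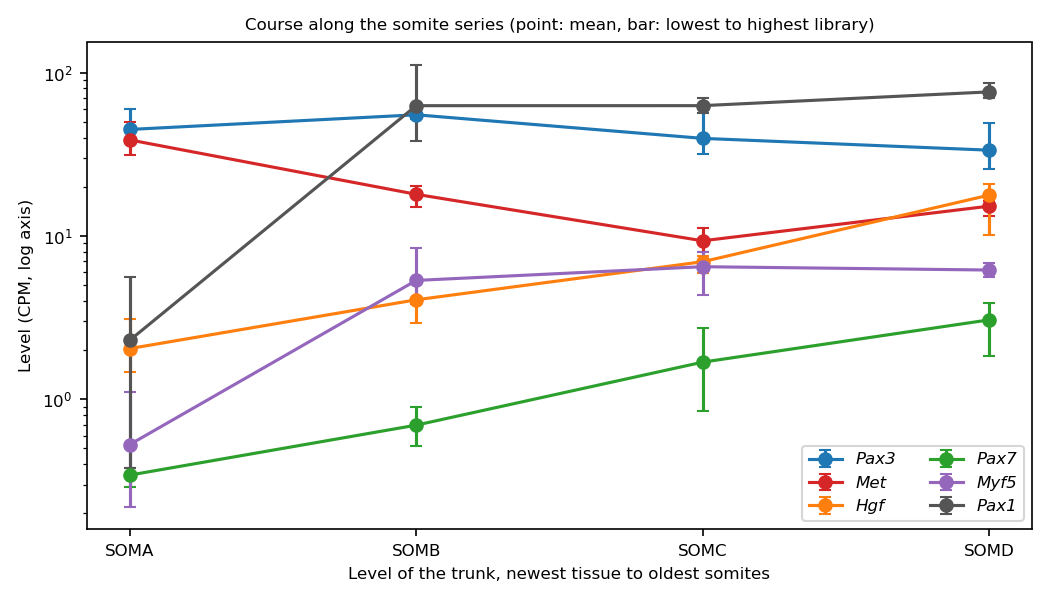
Mean level of Pax3, Met, Hgf, Pax7, Myf5 and the sclerotome gene Pax1 at the 4 somite levels (CPM, log axis); bars run from the lowest to the highest library. Met is lowest in SOMC, at 9.34 CPM, Hgf is highest in SOMD, at 17.8 CPM, and Pax7 has a higher mean at each older level.

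Eya2 was highest in SOMB. It had 7.15, 4.17 and 4.23 CPM in SOMA, 11.3, 13.8, 14.6 and 14.7 CPM in SOMB, 8.18, 15.8, 13.5 and 8.82 CPM in SOMC, and 7.36, 12.3, 8.95 and 7.29 CPM in SOMD. SOMA lay below the other 3 levels without overlap. Eya2 rose in SOMB against SOMA by a log2 fold change of 1.35 ± 0.26 (edgeR adjusted p = 0.00326; 0.66 and 1.77 within the sets). In SOMD against SOMA the change was 0.76 ± 0.26 and did not pass (edgeR adjusted p = 0.0559; 0.03 and 1.31 within the sets; adjusted p = 0.0151 without SOMA replicate 1).

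Eya1 had 64.4, 46.0 and 49.8 CPM in SOMA, 55.1, 51.6, 61.5 and 59.95 CPM in SOMB, 34.2, 46.2, 35.7 and 32.6 CPM in SOMC, and 27.7, 41.96, 31.5 and 29.4 CPM in SOMD. The SOMC and SOMD libraries were below those of SOMB, while SOMC2 overlapped SOMA. Eya1 fell in SOMD against SOMA by 0.70 ± 0.15 (edgeR adjusted p = 0.0035, with −1.17 and −0.40 within the sets). The step of −0.61 ± 0.14 in SOMC against SOMB did not pass (edgeR adjusted p = 0.0586, with −0.72 and −0.50 within the sets). The adjusted p of this step was 0.00439 with DESeq2, 0.0426 with no filter and 0.0329 without SOMC replicate 2. In all, 4 of 16 other settings passed, and the adjusted p reached 0.244. The step was not called with the near-identical libraries summed or with all 29 libraries fitted together. With the replicate block the adjusted p was 0.0453, though the numbers do not pair SOMB with SOMC.

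**Figure D4:**
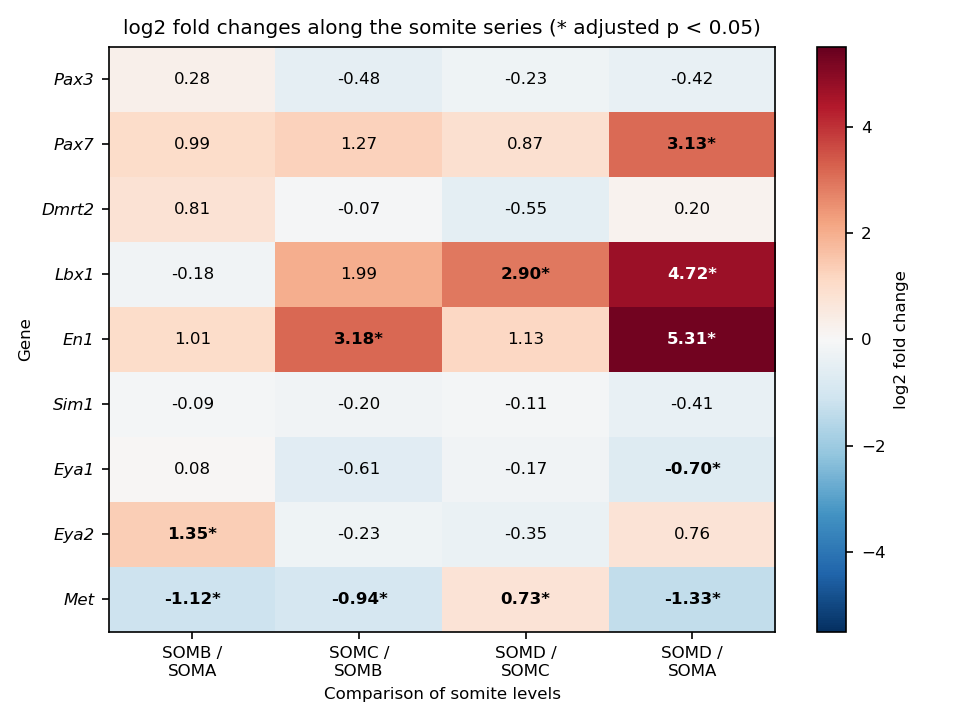
Log2 fold change of each member (rows) in the 3 comparisons of neighbouring levels and in SOMD over SOMA (columns), in colour and as numbers; an asterisk marks an edgeR adjusted p below 0.05. Met carries an asterisk in all 4 columns, and Pax7, Lbx1 and En1 have the highest values in SOMD over SOMA.

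Pax3 was not called in the 4 comparisons between levels, and in the joint test it was called with the replicate block, without SOMC replicate 2 and without SOMD replicate 2. It had 60.1, 36.8 and 37.7 CPM in SOMA, 51.9, 51.8, 63.5 and 53.5 CPM in SOMB, 32.0, 61.4, 32.7 and 32.2 CPM in SOMC, and 26.3, 49.2, 32.7 and 25.8 CPM in SOMD. Replicate 2 stood alone in SOMC and SOMD. In SOMD against SOMA the log2 fold change was −0.42 ± 0.26 (edgeR adjusted p = 0.291), and it had opposite signs within the sets, at −1.21 and 0.11. Dmrt2 (chromosome 19, 25672411-25678991, plus strand) had 21.1, 14.5 and 13.7 CPM in SOMA, 24.8, 35.8, 30.9 and 26.0 CPM in SOMB, 22.2, 41.0, 28.1 and 20.9 CPM in SOMC, and 14.3, 28.6, 19.9 and 13.5 CPM in SOMD. Each SOMB library was above the SOMA libraries, and SOMD overlapped SOMA. The difference of 0.81 ± 0.27 in SOMB against SOMA did not pass (edgeR adjusted p = 0.0822) but did in the fit with the replicate number as a block (adjusted p = 0.0306), and was 0.23 and 1.12 within the sets. Sim1 (chromosome 10, 50894754-50989152, plus strand) had 19.6, 14.7 and 15.9 CPM in SOMA, 14.3, 10.7, 22.8 and 15.9 CPM in SOMB, 9.91, 18.8, 14.5 and 11.98 CPM in SOMC, and 11.0, 18.4, 10.0 and 11.1 CPM in SOMD. The 4 levels overlapped, and SOMD against SOMA gave −0.41 ± 0.26 (edgeR adjusted p = 0.324).

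The libraries of 1 level did not vary independently from gene to gene. SOMC2 had the highest level of its group for 8 of the 9 members, En1 being the exception, and SOMD2 for 5 of them (Pax3, Dmrt2, Sim1, Eya1, Eya2). SOMA1 was highest for 7 of the 9 members.

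In the rest of the network, 5 of the 13 partners rose and 4 fell in SOMD against SOMA. The homeobox gene Meox2 rose by a log2 fold change of 2.20 ± 0.20 and was the 1 partner called in SOMB against SOMA, at 1.75 ± 0.20. Dach2, a cofactor of the Eya proteins, rose by 2.52 ± 0.32, with means of 8.86 ± 1.95 CPM in SOMD and 1.56 ± 0.15 CPM in SOMA, and was the 1 partner called in SOMD against SOMC, at 2.01 ± 0.27 (edgeR adjusted p = 0.00146). Dach1 rose by 1.24 ± 0.17. Six4 fell by 0.32 ± 0.09 (edgeR adjusted p = 0.0151) between the same levels. Of the 7 myogenic genes tested, 5 rose and 1 fell in SOMD against SOMA. Myf5 rose by 3.32 ± 0.42 there and by 3.11 ± 0.42 in SOMB against SOMA, and the muscle cadherin Cdh15 rose by 4.13 ± 0.42 and 2.54 ± 0.43.

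Since Pax3, Pax7, En1 and Lbx1 are also expressed in the nervous system, neural markers were read in the same libraries. The 16 neural tube markers summed to 81.0 to 106.8 CPM (SOMA), 94.4 to 177.4 CPM (SOMB), 78.7 to 139.6 CPM (SOMC) and 67.6 to 112.1 CPM (SOMD), and in SOMD against SOMA 6 of 14 tested markers rose and 2 fell. The 8 neural crest markers summed to 66.9 to 109.2 CPM (SOMA), 126.4 to 163.5 CPM (SOMB), 132.4 to 158.5 CPM (SOMC) and 137.8 to 163.9 CPM (SOMD). In SOMD against SOMA 3 of 8 were called higher, among them Sox10 (log2 fold change 3.78 ± 0.76, edgeR adjusted p = 0.00191). None of the listed neural markers was at 0 in all libraries of a level. Other markers moved at the step where Lbx1 and Met rose: in SOMD against SOMC, 3 of 6 lateral plate and heart field markers were called, Nkx2-5 (log2 fold change 5.24 ± 0.86) and Gata4 (2.46 ± 0.43) higher and Hand1 (−1.35 ± 0.22) lower, with sums of 117.5 to 166.4 CPM in SOMD and 163.7 to 267.7 CPM in SOMC. At that step 5 of 5 tested intermediate mesoderm markers had negative differences, and 1 was called (Pax8, lower by 1.76 ± 0.42). Of 8 epithelium markers 6 had negative differences, and 1 was called (Krt19, lower by 1.41 ± 0.12). The part of these markers in the rise of Pax7, En1, Lbx1 and Met was not tested.

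**Figure D5:**
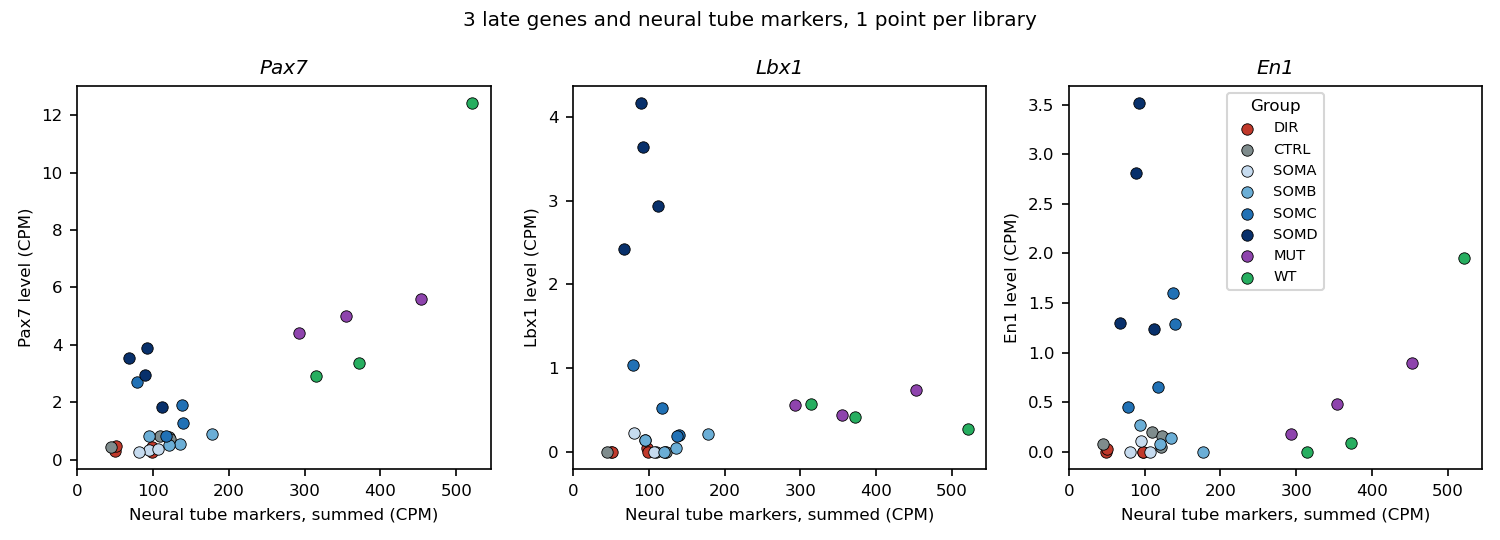
Level of Pax7, Lbx1 and En1 (y axes, CPM) against the summed level of 16 neural tube markers (x axes, CPM), 1 point per library, coloured by group. The MUT and WT libraries carry 292.6 to 521.3 CPM of these markers, against 44.5 to 177.4 CPM in the sorted and cultured libraries, and the 4 SOMD libraries are highest for Lbx1 at 67.6 to 112.1 CPM of the markers.

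In the trunk tissue, MUT and WT were compared for all 9 genes, and edgeR called 0 of them, as did DESeq2; 0 had an unadjusted p under 0.05, and 0.338% of the 14485 genes tested were called (0.331% higher, 0.0069% lower). Met was the most precisely measured, at 55.1, 54.6 and 49.4 CPM in MUT, against 48.2, 56.6 and 55.7 CPM in WT, a log2 fold change of −0.02 ± 0.09. Eya1 had 44.2, 39.4 and 44.6 CPM in MUT, against 43.7, 35.7 and 39.8 CPM in WT (0.10 ± 0.10). Pax3 had 62.6, 49.9 and 66.8 CPM in MUT, against 48.2, 41.2 and 65.3 CPM in WT (0.21 ± 0.17). WT3 stood apart from the other WT libraries for several members: Pax7 had 5.00, 4.43 and 5.61 CPM in MUT, against 3.38, 2.93 and 12.4 CPM in WT, and En1 had 23, 7 and 34 reads in MUT, against 3, 0 and 73 reads in WT. Dmrt2 had 33.5, 31.5 and 45.9 CPM in MUT, against 28.1, 27.1 and 57.8 CPM in WT. Lbx1 had 21, 22 and 28 reads in MUT, against 15, 19 and 10 reads in WT. Sim1 had 18.2, 17.1 and 21.4 CPM in MUT, against 20.6, 21.2 and 21.9 CPM in WT, and Eya2 had 9.74, 8.50 and 9.30 CPM in MUT, against 6.39, 6.00 and 10.4 CPM in WT; both pairs overlapped. WT3 also had the highest sum of neural tube markers, 521.3 CPM, and its part in these values was not tested. The log2 fold changes of Pax7 (−0.32 ± 0.49) and En1 (−0.41 ± 1.26) are correspondingly imprecise, and a p that misses the threshold does not show that the groups are alike.

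WT trunk tissue was also set against the mean of the 4 sorted levels. This contrast joins a difference of tissue, of sorting and of library handling, which cannot be told apart, and 65.4% of the 15223 genes tested were called (33.3% higher, 32.1% lower). Met, Pax7 and Dmrt2 were higher in WT, 3 of 9 members. Met averaged 53.5 ± 4.62 CPM in WT (SD, n = 3), and its log2 fold change was 1.60 ± 0.22 (edgeR adjusted p = 7.97e-07). Pax7 differed by 2.56 ± 0.29 (edgeR adjusted p = 2.13e-08; 1.59 without WT replicate 3, adjusted p = 1.41e-05) and Dmrt2 by 0.75 ± 0.22 (edgeR adjusted p = 0.00387), though Dmrt2 was not called without WT replicate 3 (0.32, adjusted p = 0.254). En1 changed direction without that library, with a log2 fold change of −2.85 (adjusted p = 0.019) in place of 0.997 ± 0.72. In the same contrast 15 of 16 neural tube markers and 8 of 8 neural crest markers were higher in WT, as were 7 of 8 surface and gut epithelium markers (Cdh1 by a log2 fold change of 4.57 ± 0.27), 7 of 7 endothelial markers and 5 of 5 erythroid markers. The part of these cells in the levels of Pax7, Dmrt2 and Met was not tested.

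Finally, cultured CTRL tissue was set against uncultured SOMA, its nearest tissue, a contrast of culture and of everything that separates the 2 sets of libraries. Met, Eya2 and Lbx1 were lower in CTRL, 3 of 9 members, where 29.4% of all genes tested were called (16% higher, 13.4% lower). Met had 20.6, 11.4, 20.6 and 9.01 CPM in CTRL, against 49.9, 31.5 and 34.7 CPM in SOMA, without overlap (log2 fold change −1.35 ± 0.30, edgeR adjusted p = 0.0014). Eya2 lay at 2.31 to 3.61 CPM in CTRL and 4.17 to 7.15 CPM in SOMA (−0.85 ± 0.26, edgeR adjusted p = 0.014; 0.204 without SOMA replicate 1). The DIR libraries, at 6.57 to 10.1 CPM of Eya2, overlapped SOMA. Lbx1 had 0 reads in the 4 CTRL libraries, against 4, 3 and 0 reads in SOMA, so the groups overlapped (edgeR adjusted p = 0.0113, and 0.0519 without SOMA replicate 1). The pooled SOMA level, from 7 reads in all, was 5.18 times a floor of 3 reads over the CTRL group. That value leaves out the counting error of the 7 reads and is not a lower bound. Pax3 (−0.50 ± 0.27), Pax7 (1.0003 ± 0.53), Dmrt2 (−0.03 ± 0.28), Eya1 (−0.17 ± 0.18) and Sim1 (−0.39 ± 0.33) did not pass.

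Over the 23 DIR, CTRL and SOM libraries, the members fell into patterns that can be described by the Pearson correlation of log2 CPM, without a test, since libraries of 1 group share their tissue. Pax3 correlated with Eya1 (0.88), Sim1 (0.86) and Dmrt2 (0.84). Pax7 correlated with En1 (0.87) and Lbx1 (0.78), and En1 with Lbx1 (0.73), while the paralogs Eya1 and Eya2 had a correlation of −0.08. Among 12690 genes with at least 1 CPM on average, those most like Pax3 were Mid1 (0.85), Ergic1 (0.85) and Dpf3 (0.83), and those most like Pax7 were Sec1 (0.97), Synpo2l (0.92) and Col6a2 (0.91). Genes most like Dmrt2 were Tshr (0.86), Cd36 (0.86) and Fmod (0.84), and those most like Eya1 were A2m (0.90), Slit1 (0.82) and Bcl2l13 (0.81). Eya2 was most like Hsd11b2 (0.90), Lrmp (0.89) and Zfp185 (0.86), and Met most like 6330403A02Rik (0.90), Sema6a (0.80) and Arl5a (0.77). Sim1 was most like Bcl2l13 (0.86).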

How the data were processed

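The deposited files hold whole-number counts of reads per gene that the authors made, 1 file per library. The submitters' processing notes name the mm10 build and the tools TopHat2 2.0.9, Cufflinks, HTSeq 0.6 and DESeq2 1.10. Neither the annotation nor a strand setting is stated there, and the TruSeq RNA v2 kit, used with 11 rounds of PCR per the labels, does not mark strand. The 5 HTSeq summary lines of each file were taken out: reads in no feature made 6.54 to 12.8%, ambiguous reads 0.584 to 1.85%, and multiply aligned reads 15.9 to 25.4% in the sorted and cultured libraries and 38.8 to 40.6% in MUT and WT.

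Genes kept by filterByExpr (minimum count 10, minimum total 15) were scaled by TMM and tested with edgeR 4.0.16 under R 4.3.3 (quasi-likelihood F tests, prior count 0.125, Benjamini-Hochberg adjustment over all genes tested, threshold 0.05). DIR with CTRL, the 15 SOM libraries, and MUT with WT each had a fit of their own; CTRL against SOMA and WT against the SOM levels came from a fit of all 29 libraries. An SE is the size of the log2 fold change divided by the square root of F. An interval given as 95% is 1.96 SE to each side, a normal approximation. With few libraries it can be narrower than the F test implies. For Pax7 in SOMB against SOMA it excludes 0 (0.07 to 1.90), while the unadjusted edgeR p was 0.0507. Alternatives were DESeq2 1.42.0, other scalings and filters, a fit of all libraries, technical shares as terms, near-identical libraries summed, a replicate block, and each library left out in turn. The steps were tested on simulated data. Same-numbered libraries deviated together in SOMA with SOMB (correlations 0.338 to 0.399) and in SOMC with SOMD (0.363 to 0.461), so the numbers pair the samples there; the labels do not say why. Coordinates are from GENCODE M21 on GRCm38, promoters from RefSeq (GRCm38.p6), which holds 5 of the 9 members; Pax3, Lbx1, Eya1 and Eya2 are not in that table. Figures were drawn with matplotlib 3.10.9.

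The members and gene lists were chosen with earlier results of these data known. Named genes are the 9 members, up to 3 genes with the lowest p of each list among those called in a comparison, 9 fixed partners, and the 3 genes most like each member over 1 CPM. Some genes of the lists are not reported here.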

Additional observations from a re-analysis of the deposited data

Results flagged for a closer look

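There were 45 combinations of a gene and a group of 4 libraries, of which Lbx1 in CTRL, at 0 throughout, could not be tested. In the rest, 5 values stood far from the other 3 libraries of their group by Dixon's test, which flags about 1 in 20 groups by chance. Pax3 was at 63.5 CPM in SOMB3, where the other SOMB libraries had 51.8 to 53.5 CPM, and at 61.4 CPM in SOMC2, where the others had 32.0 to 32.7 CPM. Sim1 was at 18.4 CPM in SOMD2, where the others had 10.0 to 11.1 CPM. Lbx1 was at 0.0479 CPM in DIR3 and En1 at 0.0249 CPM in DIR2, each from 1 read where the other 3 libraries had 0. Such a pattern is always flagged, so the rate by chance does not apply to these values. SOMC2 and SOMD2 were also the highest of their groups for Dmrt2, Eya1 and Eya2.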

How the results depend on the processing

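The number of members called moved by more than 1.5 times under 9 of 16 settings in SOMC against SOMB, 6 of 16 in SOMD against SOMC, 5 of 15 in DIR against CTRL and 1 of 11 in CTRL against SOMA, and under 0 in the other 5 comparisons. In DIR against CTRL, 1 member was called in the fit as reported, 3 with DESeq2 (Eya1, Eya2, Pax3), 4 with all libraries in 1 fit (Eya1, Eya2, Pax3, Sim1) and 3 with the multiply aligned share as a term (Eya1, Eya2, Sim1), where 0.747, 3.5, 9.74 and 1.52% of all genes tested were called. In SOMC against SOMB 2 were called, 1 without scaling, 0 in the fit of all libraries and 0 with near-identical libraries summed. In SOMD against SOMC 2 were called, 1 in the fit of all libraries and 0 with those libraries summed. With each library left out in turn, the number called was 0 to 1 in DIR against CTRL, 2 in SOMB against SOMA, 1 to 3 in SOMC against SOMB, 1 to 2 in SOMD against SOMC, 5 to 6 in SOMD against SOMA, 0 in MUT against WT, 1 to 3 in CTRL against SOMA, 3 to 4 in WT against the SOM levels and 6 to 8 in the joint test. With the replicate number as a block the number called was 1 in DIR against CTRL, 3 in SOMB against SOMA (adding Dmrt2), 3 in SOMC against SOMB (adding Eya1, adjusted p = 0.0453), 2 in SOMD against SOMC, 5 in SOMD against SOMA, 0 in MUT against WT and 8 in the joint test (adding Dmrt2 and Pax3); outside SOMA with SOMB and SOMC with SOMD the numbers do not pair the libraries, with correlations of −0.576 to 0.756 in DIR and CTRL, −0.267 to 0.416 in SOMB and SOMC, −0.186 to 0.290 in SOMA and SOMD, and 0.004 to 0.310 in MUT and WT, and not every library correlated best with its own number there. Over all genes the block called 256 in DIR against CTRL, 179 in SOMC against SOMB and 328 in MUT against WT, and the fit without it 106, 114 and 49. Of 70 log2 fold changes, 16 had the other sign under at least 1 setting, 0 of them past the threshold as reported. En1 in WT against the SOM levels reversed past the threshold, at −2.85 without WT replicate 3, its range over libraries left out being −2.85 to 1.89; the cause was not tested. Pax7, Lbx1, En1, Eya1 and Met in SOMD against SOMA, and Eya2 and Met in SOMB against SOMA, passed under each of the 15 settings run. Pax7, En1 and Lbx1 rest on few reads in the younger levels, and intervals cover the spread between libraries.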

Other observations

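Beside the 9 genes, a list of the dermis and a list of dorsal Wnt signals and somite responses were read along the somites. The second list also holds genes that are not Wnt genes, such as Nog and Gas1. Ebf3, a transcription factor of the dermis list, rose in SOMB against SOMA by a log2 fold change of 2.61 ± 0.32 (edgeR adjusted p = 6.03e-05) and in SOMD against SOMA by 3.41 ± 0.32 (edgeR adjusted p = 1.91e-06), while Pdgfa, a growth factor of that list, fell by 0.97 ± 0.18 in SOMD against SOMA (edgeR adjusted p = 9.23e-04); 1 of 8 tested rose and 1 fell there. Of 11 genes of the second list tested in SOMD against SOMA, 1 rose and 3 fell, among them Lef1, the nuclear effector, by 1.54 ± 0.20 (edgeR adjusted p = 3.30e-05), and the ligand Wnt3a by 4.59 ± 0.76 (edgeR adjusted p = 3.55e-04). In DIR against CTRL, 1 of 10 tested genes of the second list was called, Wnt4, which fell by 2.43 ± 0.30 (edgeR adjusted p = 0.00628), and 0 of 8 dermis genes were called by edgeR, 2 of them with an unadjusted p under 0.05.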
